A study of Mus musculus with 12 samples.

Results

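The genes described here carry the hedgehog signal in mouse cells. They are Ihh (the ligand), Ptch1, Smo, Hhip and Boc (receptor, transducer, ligand trap and co-receptor), Sufu (the cytoplasmic inhibitor) and the transcription factors Gli1, Gli2 and Gli3. They were found by gene symbol, so that no measured value enters the rule, although the set was proposed with earlier results of these data known, and all 9 were found in each of the 3 tables examined. They are 9 of 53715 genes in the table of 5 periosteal stem cell (PSC) libraries, of 48709 in the table of the remaining PSC library and of 46517 in the osteoclast table.

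The study compared C57BL/6 mice in which Ctsk-Cre deletes Prmt5, the gene of an arginine methyltransferase, with control mice. This Cre acts in osteoclasts and also in PSCs. RNA-seq was made on an Ion Torrent Proton from 12 samples, 3 control and 3 cKO (labelled KO) for each cell type. PSCs came from mice 3 to 6 weeks old and were sorted as Ctsk-lineage cells (EGFP reporter) positive for CD51 and CD200 and negative for Ter119, CD31, CD45, 6C3, CD90 and CD105. All PSC donors carried Ctsk-Cre and the CAG-CAT-EGFP reporter; the controls were Prmt5 flox/+ and the cKO Prmt5 flox/Δ, so that the controls also held 1 floxed allele. Osteoclasts were grown from bone marrow of mice 11 weeks old and harvested after 72 h with RANKL. The sources used here give neither the genotype of their controls nor the number of mice behind these cultures.

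Hedgehog ligands bind Ptch1 and so release Smo, which acts through the primary cilium to turn GLI proteins from repressors into activators. Gli1 and Ptch1 are themselves transcribed in response to the signal, and for that reason their mRNA is widely used as its readout, as is that of Hhip. In growing bone Ihh is made mainly by prehypertrophic chondrocytes of the growth plate and acts on neighbouring chondrocytes and on the perichondrium, in a loop with PTHrP.

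Prmt5 itself checks the labels. In PSCs its RPKM (reads scaled to the kilobases of exon and to the mapped reads of a library, per 1000000) was 6.29, 8.31 and 4.32 in control 1, 2 and 3, and 8.40, 6.31 and 8.08 in the libraries labelled cKO 1, 2 and 3. It was therefore not lower in the labelled cKO PSCs (log2 fold change 0.05 ± 0.17 SE, limma adjusted p = 0.868), and all directions below refer to the labels. Whether the counted reads cover the deleted exons is not given, so this level does not show whether the allele was recombined. Postn, which encodes a matrix protein of the periosteum, was lower in every labelled cKO library (188 to 240 RPKM against 488 to 737 RPKM, log2 fold change -1.28, limma adjusted p = 0.00333). PSC control 3 has a table of its own, made with an older gene annotation, fewer mapped reads (6958265 against 9932976 to 13928745) and a lower correlation of log2(RPKM + 1) with the other libraries (0.88 to 0.90, against 0.95 to 0.98 among the 5). The comparison of PSCs was therefore made on the 5 libraries of 1 table, 2 controls against 3 cKO. The change of each of the 9 genes is also given with control 3. Cartilage transcripts were abundant in every PSC library, with 1582 to 6705 RPKM for Col2a1, a chondrocyte collagen. Ctsk, which defines the sorted lineage, stood at 156 to 192 RPKM.

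Ihh was the lowest of the 9 genes in the 5 libraries. It stood at 0.32 and 0.61 RPKM in control 1 and 2, at 9.10 RPKM in control 3, and at 0.92, 1.75 and 1.86 RPKM in cKO 1, 2 and 3. Control 3 was the highest library and the other controls were the lowest, so the groups overlap once control 3 is included and do not overlap without it. Ihh lies on chromosome 1 at 74945315 to 74951672 (GRCm38, minus strand), where the annotation shows no overlapping gene. Its levels rest on 11 and 20 exon reads in control 1 and 2, 193 in control 3, and 39, 53 and 66 in cKO 1, 2 and 3.

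In exon reads per 1000000 mapped reads (RPM), with 95% Poisson intervals that cover counting error only, Ihh was at 0.97 (0.48 to 1.73) in control 1 and 1.85 (1.13 to 2.86) in control 2. Control 3 was at 27.7 (23.96 to 31.9). The cKO libraries were at 2.80 (1.99 to 3.83), 5.34 (3.997 to 6.98) and 5.68 (4.39 to 7.22). Thus the gap between control 3 and the other controls was larger than counting error, as was the gap between control 1 and each cKO library. The intervals of control 2 and cKO 1 overlap.

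**Figure D1:**
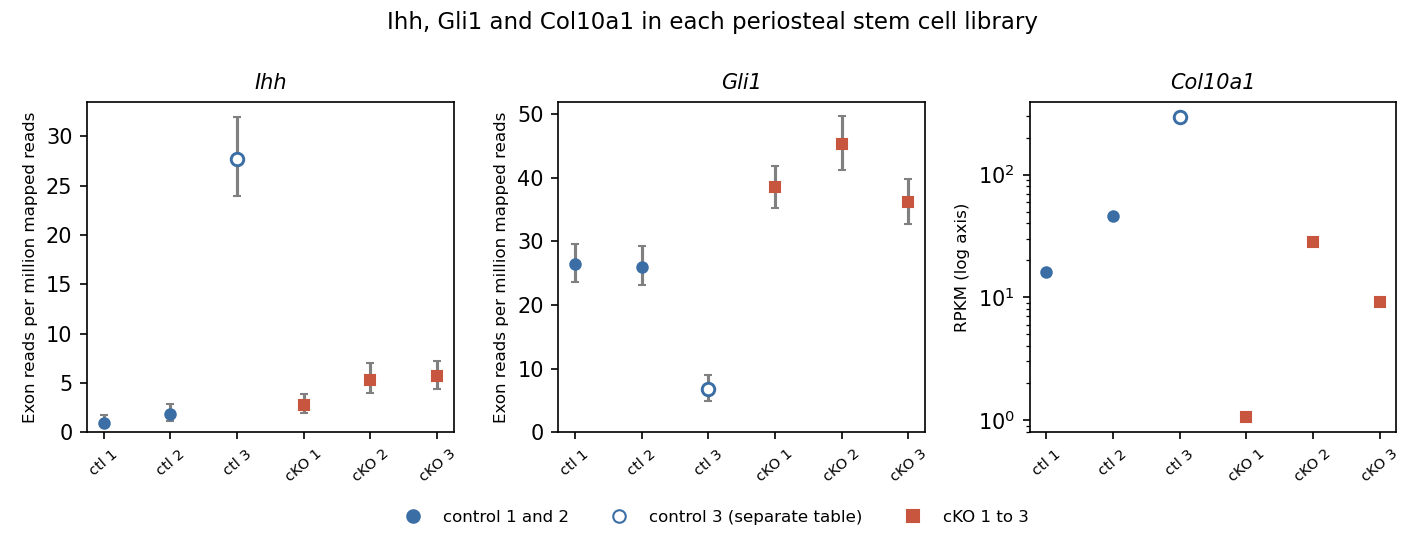
Exon reads per 1000000 mapped reads of Ihh and Gli1 (bars: 95% Poisson intervals) and RPKM of Col10a1 (log axis) in each PSC library, with control 3 drawn open. For Ihh control 3 is far above all other libraries (27.7), and for Gli1 it is the lowest (6.75), below all cKO libraries.

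Over the 5 libraries the fitted change of Ihh was 0.76 ± 0.23 SE (log2 fold change of RPKM + 1) and did not pass the threshold (limma adjusted p = 0.0814). The pseudocount of 1 understates the change of so low a gene: mean RPKM was 0.463 ± 0.206 (SD, n = 2) in control and 1.51 ± 0.516 (SD, n = 3) in cKO, a ratio of 3.26. Only the cKO libraries brought Ihh over the filter of a mean RPKM of 1, so that its presence among the tested genes is not a result. With control 3 the change turned to -0.17 ± 0.73 SE (limma adjusted p = 0.925), and in edgeR on reads recovered from the RPKM it turned from 1.54 ± 0.52 SE to -1.18 ± 1.07 SE (adjusted p = 0.112 and 0.637). The direction of Ihh therefore depended on 1 library.

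Some genes of hypertrophic cartilage were also highest in control 3, as were 34.6% of all tested genes with a value in each library. Of genes on other lists, Alpl (608 RPKM) and Postn (737 RPKM) were highest there too. The stromal genes Col1a1 (3104 RPKM) and Col1a2 (2419 RPKM) were lowest there. Col10a1, the collagen of hypertrophic chondrocytes, was at 16.0 and 45.7 RPKM in control 1 and 2, at 295 RPKM in control 3, and at 1.06, 28.4 and 9.15 RPKM in cKO 1, 2 and 3. The summed level of the 4 listed hypertrophic genes was 3003 to 7183 RPKM in controls, with control 3 the highest, and 3328 to 4996 RPKM in cKO. Mmp13, a collagenase, and Pth1r, the PTHrP receptor, were also highest in control 3 (2383 and 329 RPKM). Ibsp, a bone matrix gene of the same list, was highest in cKO 2 (4405 RPKM, against 4176 RPKM in control 3), and every cKO library was above control 1 and 2. Of these 4 genes only Mmp13 was called, lower in cKO (log2 fold change -1.08, limma adjusted p = 0.0326), and it was not called with control 3 (-1.48, adjusted p = 0.116). The share of all tested genes called was 10.1%, with 8.46% higher in cKO. Among 11 chondrocyte genes 2 were called higher in cKO, Matn3 (1.16, adjusted p = 0.0226) and Col9a1 (0.91, adjusted p = 0.0403), both encoding cartilage matrix proteins, and neither was called with control 3 (adjusted p = 0.0574 and 0.117). Control 3 was the lowest library for the chondrocyte genes Col2a1 (1582 RPKM), Acan (51.3 RPKM), Col9a1 (38.7 RPKM) and Col11a1 (94.5 RPKM). It was not the lowest for Matn3 (77.7 RPKM), Sox9 (50.8 RPKM), Hapln1 (74.0 RPKM), Col9a2 (102 RPKM) and Matn1 (0.79 RPKM), and it was the highest for Comp (3222 RPKM). Over all tested genes with a value in each library, it was the lowest for 29.6%.

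Markers of some other cell types differed too. None of the tested osteoclast (3), macrophage (3) and leukocyte (1) markers was called. The sum of 4 hemoglobin genes of red cells was 46.9 and 32.8 RPKM in control 1 and 2, 1236 RPKM in control 3 and 510.5, 855 and 182 RPKM in cKO 1, 2 and 3. Control 3 was the highest and every cKO library was above control 1 and 2, as for Ihh. The order within cKO differed, since the sum was lowest in cKO 3, where Ihh was highest (1.86 RPKM). All 4 were called higher in cKO over the 5 libraries, but none with control 3 (limma adjusted p = 0.390 to 0.630). The sum of 4 endothelial genes was 0.806 to 2.54 RPKM in the 3 controls and 4.04 to 11.3 RPKM in cKO. Only Pecam1 separated the groups, at 0.23 to 0.67 RPKM in the 3 controls and 3.24 to 6.72 RPKM in cKO. It was the 1 tested and was called higher (1.70, limma adjusted p = 0.0107), also with control 3 (1.83, adjusted p = 0.0312). Cdh5, Kdr and Tek overlapped between the groups. The sort was against Ter119 and CD31, surface markers of red and endothelial cells. Of 7 tested osteoblast and osteocyte genes 3 were called lower over the 5 libraries (Dmp1, Phex and Ifitm5). Of 8 stromal genes 3 were called lower (Postn, Lum and Col3a1), beside 184 of all 11045 genes tested. Of these osteoblast, osteocyte and stromal calls only that of Postn was kept with control 3 (limma adjusted p = 0.0262). The calls of Dmp1, Phex, Ifitm5, Lum and Col3a1 were lost (limma adjusted p = 0.0846, 0.0543, 0.557, 0.144 and 0.223). For Ifitm5 control 3 (14.3 RPKM) was below every cKO library. In bulk RNA fewer cells of a type and less RNA per cell cannot be told apart, and the part of cartilage, red or other cells in the levels of Ihh and Gli1 was not tested.

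The remaining ligands were near or at 0. Shh was at 0 to 0.09 RPKM and Dhh at 0.04 to 0.32 RPKM in the 6 PSC libraries. Ihh was thus the only one of the 3 hedgehog ligands above 0.5 RPKM in any PSC library. Of genes that process or release the ligand, Hhat, which attaches palmitate to it, was at 1.63 and 1.19 RPKM in control 1 and 2, at 0.94 RPKM in control 3 and at 1.67 to 2.30 RPKM in cKO (log2 fold change 0.28, limma adjusted p = 0.346). Scube1, of a family of secreted proteins that take up the ligand, was at 11.4, 7.92 and 8.13 RPKM in control and 11.6 to 15.4 RPKM in cKO (0.40, adjusted p = 0.207).

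Transcripts for reception of the signal were present in every PSC library. Per exon length, Boc (a co-receptor) was the most abundant of the 9 genes, with a mean of 65.1 RPKM over the 5 libraries, and Smo was the next with 34.6 RPKM. In all 5 libraries Boc was above Smo and Smo above Gli1 (6.90 RPKM), with ranges that do not overlap. Gli1, Hhip (5.82 RPKM), Sufu (5.51 RPKM), Ptch1 (4.37 RPKM), Gli3 (3.74 RPKM) and Gli2 (3.36 RPKM) followed, and each neighbouring pair in this order overlapped in range. Ihh, with a mean of 1.09 RPKM, was below Gli2 in all 5 libraries.

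**Figure D2:**
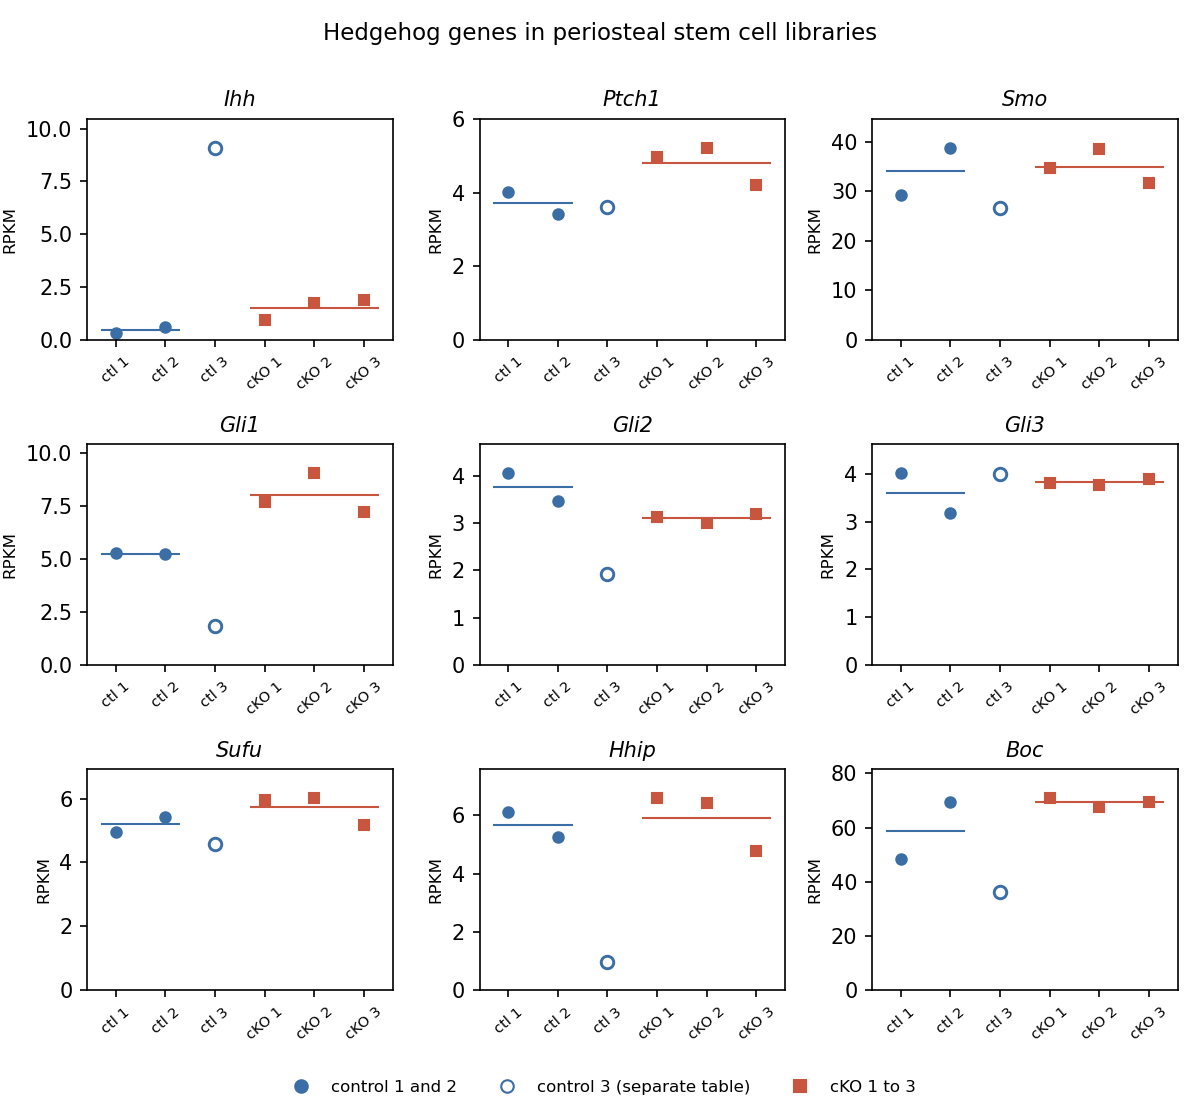
RPKM of each hedgehog gene in the 6 PSC libraries, with a separate vertical axis from 0 for each gene. Lines mark the means of control 1 and 2 and of the 3 cKO libraries, and control 3 (open) is drawn but not averaged; Gli1 and Ptch1 are higher in every cKO library than in every control.

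Ptch1, the receptor and inhibitor of Smo, was at 4.01, 3.43 and 3.599 RPKM in control 1, 2 and 3, and at 4.96, 5.23 and 4.21 RPKM in cKO 1, 2 and 3. Every cKO library was above every control, by a narrow margin between control 1 and cKO 3. The change was 0.30 ± 0.14 SE and did not pass the threshold (limma adjusted p = 0.225), nor did it with control 3 (0.31 ± 0.14 SE, adjusted p = 0.321). Ptch1 lies on chromosome 13 at 63508328 to 63573598 (minus strand), and no gene overlaps its exons. The exon length behind its RPKM was 12222 bases in the table of 5 libraries and 8745 bases in that of control 3, so its RPKM in control 3 counts reads over a shorter gene model.

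Hhip, a membrane protein that binds the ligand and removes it, was at 6.10 and 5.25 RPKM in control 1 and 2, at 0.95 RPKM in control 3, and at 6.59, 6.41 and 4.77 RPKM in cKO 1, 2 and 3. The 5 libraries overlapped and control 3 stood below all of them. The change was 0.04 ± 0.16 SE without control 3 (limma adjusted p = 0.884) and 0.64 ± 0.47 SE with it (adjusted p = 0.515).

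Boc was at 48.3, 69.4 and 36.1 RPKM in control 1, 2 and 3, and at 70.8, 67.4 and 69.4 RPKM in cKO 1, 2 and 3. The cKO libraries were close to each other and to control 2, and control 1 and 3 were lower. The change was 0.25 ± 0.16 SE (limma adjusted p = 0.337). It was -0.0048 without control 1 and 0.48 ± 0.23 SE with control 3 (adjusted p = 0.331). Of the other co-receptors, Gas1 was at 63.9 to 99.3 RPKM over all 6 libraries (log2 fold change -0.10, adjusted p = 0.813). Cdon, the paralogue of Boc, was at 2.13, 4.01 and 3.15 RPKM in control and 5.34, 3.80 and 6.00 RPKM in cKO, with overlap (0.59, adjusted p = 0.160). The glypican Gpc3, which competes with Ptch1 for the ligand, was at 20.8, 29.2 and 40.7 RPKM in control and 16.2 to 20.2 RPKM in cKO, every cKO library below every control (-0.39, adjusted p = 0.180). None of these differences passed the threshold.

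Smo, the membrane transducer that Ptch1 inhibits, was at 29.3, 38.8 and 26.5 RPKM in control 1, 2 and 3, and at 34.7, 38.5 and 31.6 RPKM in cKO 1, 2 and 3. Sufu, which holds GLI proteins in the cytoplasm, was at 4.96, 5.43 and 4.59 RPKM in control and 5.96, 6.02 and 5.19 RPKM in cKO. Both overlapped between the groups, with changes of 0.05 ± 0.15 SE for Smo (limma adjusted p = 0.873) and 0.12 ± 0.13 SE for Sufu (adjusted p = 0.595). With control 3 they were 0.16 ± 0.17 SE for Smo (adjusted p = 0.655) and 0.17 ± 0.14 SE for Sufu (adjusted p = 0.549).

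Gli1, the GLI factor that acts only as an activator, was at 5.297 and 5.21 RPKM in control 1 and 2, at 1.84 RPKM in control 3, and at 7.70, 9.07 and 7.23 RPKM in cKO 1, 2 and 3. All cKO libraries were above all controls, and control 3 was the lowest. In RPM of exon reads the controls were at 26.5, 26.0 and 6.75 and the cKO libraries at 38.5, 45.3 and 36.1. Mean RPKM was 5.26 ± 0.0587 (SD, n = 2) in control and 8.002 ± 0.954 (SD, n = 3) in cKO, a ratio of 1.52. Gli1 was the only member called, and it rose by 0.52 ± 0.13 SE on the log2 scale (limma adjusted p = 0.0490). Of all genes tested, 10.1% were called in either direction and 8.46% as higher in cKO.

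The call of Gli1 was at the threshold and depended on the processing. The median change of all tested genes was 0.14, and relative to it Gli1 was 0.38 higher. With median-of-ratios size factors, which remove that shift, the change was 0.38 ± 0.14 SE (limma adjusted p = 0.163). In edgeR on recovered reads it was 0.44 ± 0.16 SE (adjusted p = 0.136), and with control 3 it was larger but more variable (0.90 ± 0.32 SE, limma adjusted p = 0.212). Leaving out any 1 of the 5 libraries ended the call (limma adjusted p = 0.0864 to 0.157). The direction was the same in each of these fits. Gli1 lies on chromosome 10 at 127329882 to 127341974 (GRCm38, minus strand), and 3076 of its 4995 exon bases lie within the span of Gm47200, an antisense gene. Another gene of the opposite strand, the protein-coding Arhgap9, spans 62 exon bases of Gli1. It was at 0.56, 0.42 and 0.95 RPKM in control and 1.71, 0.90 and 0.98 RPKM in cKO. The use of strand in counting is not given, so reads of Gli1 and of these genes cannot be told apart there. Gm47200 itself was listed at 0 to 0.15 RPKM in the 5 libraries. The gene model of Gli1 was 3665 bases in the table of control 3.

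Gli2, the main activator of the family, went the other way. It was at 4.06 and 3.45 RPKM in control 1 and 2, at 1.92 RPKM in control 3, and at 3.13, 3.00 and 3.18 RPKM in cKO 1, 2 and 3. Without control 3 all cKO libraries were below both controls, and control 3 was lower still, which ends that separation. The change of -0.21 ± 0.14 SE did not pass the threshold (limma adjusted p = 0.356). In edgeR on recovered reads it was -0.44 ± 0.16 SE (adjusted p = 0.135), and with control 3 it was 0.02 ± 0.23 SE in limma (adjusted p = 0.969). Gli3, the main repressor, was at 4.02, 3.19 and 4.002 RPKM in control and 3.82, 3.78 and 3.90 RPKM in cKO, with overlap, and its change was 0.08 ± 0.14 SE (adjusted p = 0.767), or 0.03 ± 0.14 SE with control 3 (adjusted p = 0.924).

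**Figure D3:**
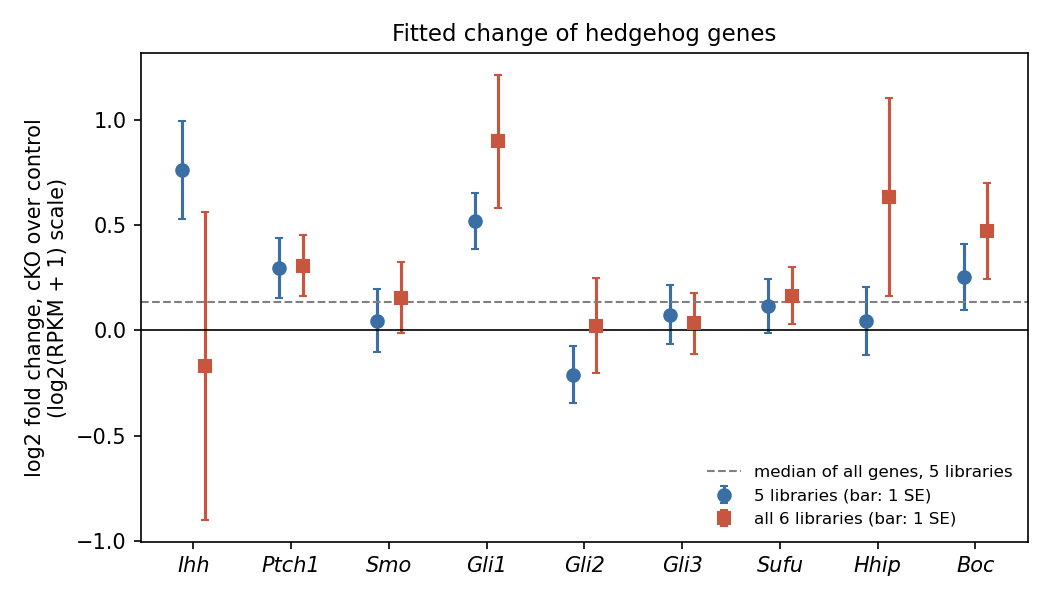
Fitted log2 fold change of each hedgehog gene on the log2(RPKM + 1) scale, cKO over control, in the 5 libraries of 1 table and in all 6 (bars: 1 SE). The dashed line is the median of all tested genes in the 5 libraries (0.14); Ihh falls from 0.76 to -0.17 when control 3 is added, and Gli1 goes from 0.52 to 0.90.

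Counts over the 9 genes were close to those over all genes. All 9 passed the filter, Ihh by its cKO libraries. Their median change was 0.12, and that of all tested genes 0.14. In the 5 libraries 3 members (Ihh, Ptch1 and Gli1) were higher in every cKO library and 1 (Gli2) was lower in every one, and the groups do not overlap for 45.8% of all tested genes (35.6% higher and 10.2% lower). In all 6 libraries this held for 2 members, Ptch1 and Gli1, both higher, beside 27.3% of the genes (20.7% higher and 6.55% lower). With all 6 libraries limma called 1.89% of the genes and with 5 libraries edgeR on recovered reads called 6.57%, in both cases none of the 9. With the size factors above, 5 of the 9 (Smo, Gli2, Gli3, Sufu and Hhip) had a change below 0.

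The share of intron reads in all reads of a gene was also deposited. It bears on the question of splicing, since Prmt5 methylates proteins of the spliceosome. Gli2 and Gli3, which have long introns, had the highest shares in the 5 libraries. Gli2 was at 33.3%, 35.4% and 36.1% in control 1, 2 and 3, and at 39.96%, 47.6% and 40.5% in cKO 1, 2 and 3. Gli3 was at 43.2%, 43.1% and 44.0% in control and 36.4%, 39.0% and 29.8% in cKO. The shares thus differed in opposite directions in these 2 genes, with no overlap between the groups in all 6 libraries.

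Gli1 was at 8.23%, 6.02% and 7.84% in control and 13.1%, 16.2% and 8.89% in cKO, every cKO library above every control. These shares rest on 27, 18 and 4 intron reads in control and 81, 87 and 41 in cKO. Smo was at 7.29%, 6.28% and 11.1% in control and 5.92%, 3.79% and 4.99% in cKO, every cKO library below every control. In all 6 libraries 4 of 9 members therefore did not overlap, 2 higher and 2 lower, beside 20.6% of all tested genes (14.4% higher and 6.20% lower).

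No member passed the test of the intron share. The log2 odds changed by 0.50 ± 0.22 SE for Gli2 (limma adjusted p = 0.340), by -0.49 ± 0.24 SE for Gli3 (adjusted p = 0.385), by 0.86 ± 0.38 SE for Gli1 (adjusted p = 0.352) and by -0.48 ± 0.32 SE for Smo (adjusted p = 0.526). The test called 9 of 10697 genes, which is 0.0841%, 7 of them higher in cKO. An interaction test in edgeR on recovered exon and intron reads called 3.04% of the genes, none of them a member (adjusted p = 0.291 for Gli1, 0.445 for Gli3 and 0.495 for Gli2; Ihh was not tested there). Few reads limited the precision in part. The exact 95% binomial interval of the Gli1 share was 3.61% to 9.35% in control 2 and 6.46% to 11.9% in cKO 3, so these overlap. In cKO 2 it was 13.2% to 19.6%, above that of cKO 3. Libraries of the same group thus also differed by more than counting error.

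Shares of the remaining members overlapped between the groups. They were 11.7% to 27.5% for Ptch1, 23.4% to 36.9% for Sufu and 8.20% to 24.4% for Boc over the 6 libraries, and in each of these genes control 3 was the highest. Hhip was at 0% to 4.99%. Ihh had no intron read in control 1, control 2, cKO 2 and cKO 3, 1 in cKO 1, and 14 of 207 reads in control 3 (6.76%).

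**Figure D4:**
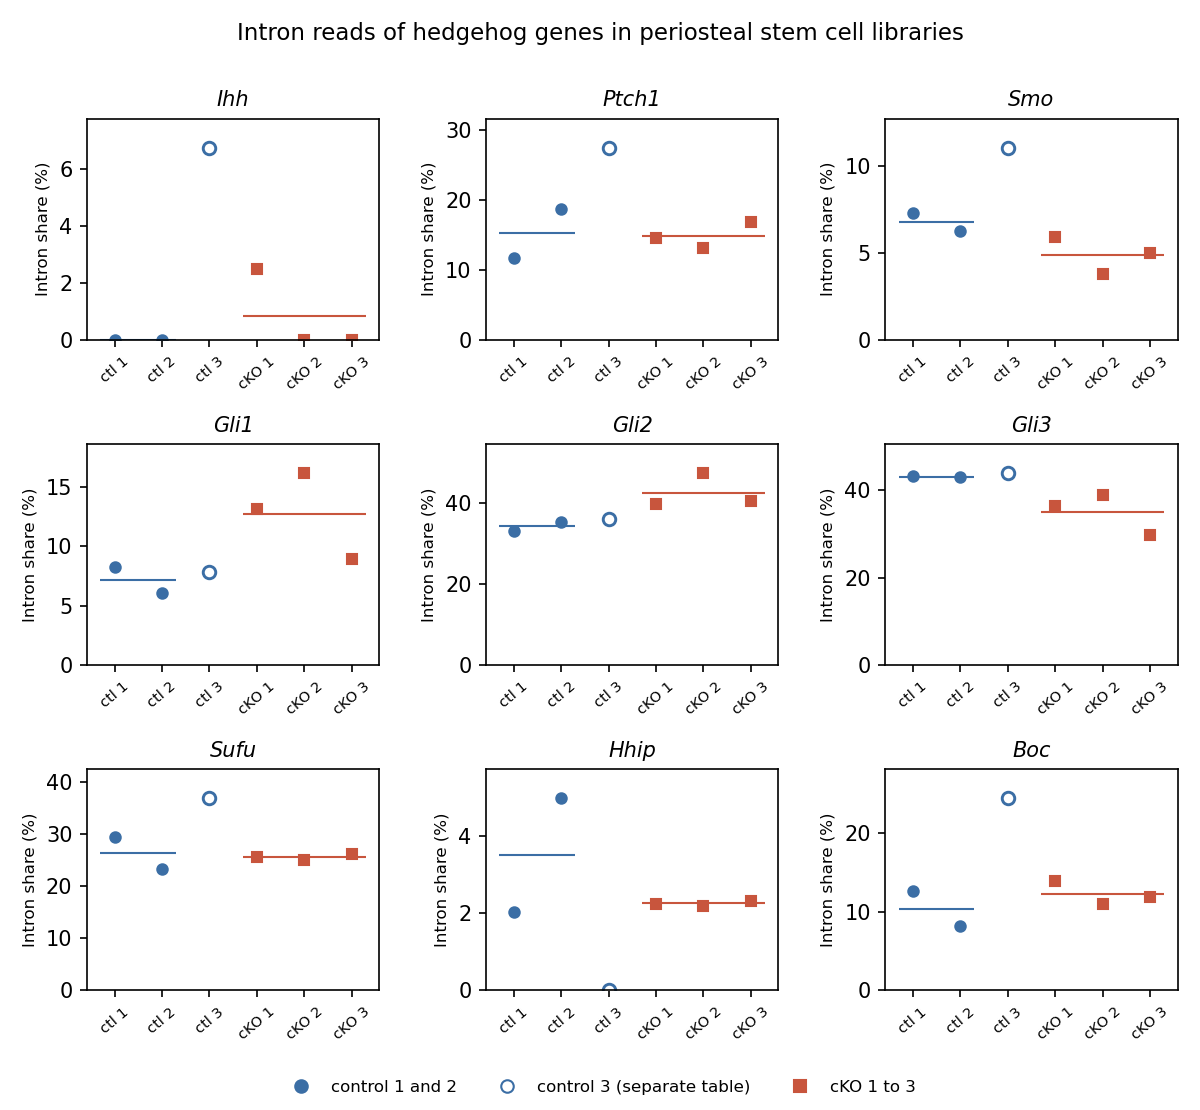
Share of intron reads in all reads of each hedgehog gene (percent) in the 6 PSC libraries, with a separate vertical axis from 0 for each gene and lines at the means of control 1 and 2 and of the cKO libraries. Gli1 and Gli2 are higher, and Gli3 and Smo lower, in every cKO library than in every control, while control 3 (open) is the highest for Ptch1, Sufu and Boc.

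A further 67 genes of the pathway were listed by their role. In PSCs 50 of them were tested and 4 were called, all higher in cKO, none lower, beside 10.1% of all genes tested. Their median change was 0.20, and that of all tested genes 0.14. Of 15 tested genes of the cilium and of the steps from Smo to GLI, 3 were called. Ift172, a component of the intraflagellar transport that builds the cilium, was at 5.62, 6.61 and 5.299 RPKM in control and 14.1, 12.5 and 11.3 RPKM in cKO. It rose by 0.94 ± 0.14 SE (limma adjusted p = 0.00800), with every cKO library above every control, and it was called with control 3 as well (0.99 ± 0.14 SE, adjusted p = 0.0283), but not without control 1 (adjusted p = 0.0573).

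Evc, which binds Smo at the base of the cilium, was at 3.95, 4.86 and 5.64 RPKM in control and 6.78, 7.19 and 6.84 RPKM in cKO (0.56 ± 0.13 SE, limma adjusted p = 0.0381). Ulk3, a kinase that acts on GLI proteins, was at 4.44, 4.15 and 7.02 RPKM in control and 6.46, 8.04 and 6.54 RPKM in cKO (0.59 ± 0.14 SE, adjusted p = 0.0377). Both were lost as calls with control 3 (adjusted p = 0.192 and 0.364), with size factors (0.0968 and 0.119), in edgeR (0.0620 and 0.110) and without any 1 of the 5 libraries (limma adjusted p = 0.0606 to 0.171 for Evc and 0.0712 to 0.139 for Ulk3).

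Among 16 kinase and degradation genes Cul3, the scaffold of the ubiquitin ligase that turns over full-length GLI proteins, was called. It was at 3.91 and 2.62 RPKM in control 1 and 2, at 16.8 RPKM in control 3, and at 7.84, 6.53 and 13.6 RPKM in cKO 1, 2 and 3. It rose by 1.23 ± 0.28 SE without control 3 (limma adjusted p = 0.0349), and with control 3, its highest library, the change was 0.54 ± 0.58 SE (adjusted p = 0.652). Leaving out control 1, control 2, cKO 1 or cKO 3 also ended the call (adjusted p = 0.0543 to 0.155). Sap18, which is known to bind Sufu, was at 6.88, 5.69 and 16.95 RPKM in control and 10.3, 8.53 and 12.1 RPKM in cKO (0.63, adjusted p = 0.0512).

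Of 14 listed targets of the pathway 7 were tested and none was called. Sfrp1, a secreted WNT inhibitor, was at 1.75, 2.63 and 1.45 RPKM in control and 3.56, 3.80 and 4.27 RPKM in cKO (0.62 ± 0.17 SE, limma adjusted p = 0.0559). Ccnd1, which encodes cyclin D1, was at 2.26, 1.48 and 1.65 RPKM in control and 2.85, 3.38 and 3.47 RPKM in cKO (0.57 ± 0.17 SE, adjusted p = 0.0784). In both genes every cKO library was above every control, and neither was called with control 3 (0.75, adjusted p = 0.116, and 0.61, adjusted p = 0.150). The genes of the PTHrP loop overlapped between the groups: Pthlh, the gene of PTHrP, was at 12.5 to 16.4 RPKM in control and 11.3 to 21.9 RPKM in cKO (0.13, adjusted p = 0.772). Its receptor Pth1r was at 130 and 90.5 RPKM in control 1 and 2, at 329 RPKM in control 3 and at 94.9 to 118 RPKM in cKO (-0.05, adjusted p = 0.873), and with control 3 its change was -0.58 ± 0.43 SE (adjusted p = 0.516). No pathway gene was called in the test of intron shares.

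The genes most like 3 members in pattern were sought over the 6 PSC libraries among 10942 genes, as a description. For Ihh they were Nlrx1, Gnptab and Gatc, with a Pearson r of 0.998, 0.996 and 0.996. For Gli1 they were Phka1 (0.998), Capn6 (0.998) and Zdhhc5 (0.997), and for Ptch1 they were Gm973 (0.996), Rnf10 (0.990) and Dhx35 (0.986). With only 6 libraries the named genes were not alone: of the 10942 genes 250 were above 0.95 for Ihh, 286 for Gli1 and 31 for Ptch1. Control 3 differs from the rest in depth and annotation, and its part in these values was not tested. Capn6 followed control 3 as Gli1 did, at 32.4, 31.9 and 9.49 RPKM in control and 47.4, 56.7 and 46.2 RPKM in cKO.

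In osteoclast cultures most of the pathway was near the limit of detection. Raw counts per library were deposited, with totals of 2513440 to 2805824 in control and 984885 to 3608940 in cKO. In these cultures Prmt5 was lower in cKO, at 146, 185 and 194 counts against 105, 45 and 34 (log2 fold change -1.01, edgeR adjusted p = 0.0349), a call lost in DESeq2 (adjusted p = 0.0550) and, when 1 library was left out, without control 2, control 3, cKO 1 or cKO 3 (edgeR adjusted p = 0.103 to 0.281). Only Ptch1, Sufu and Boc had enough counts to be tested. A count of 3, the limit that a count of 0 allows, corresponds to 0.83 to 3.05 counts per 1000000 counts (CPM) over the 6 libraries.

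Ihh had 0, 0 and 3 counts in control 1, 2 and 3, and 1, 2 and 0 in cKO 1, 2 and 3. Hhip had 1, 0 and 2 in control and 0, 1 and 0 in cKO. Gli2 had 1, 2 and 3 in control and 2, 0 and 0 in cKO. These 3 genes were thus at or under 3 counts in every library, and no difference could be detected at this depth. Gli1 was little higher, with 2, 4 and 4 counts in control and 6, 3 and 3 in cKO. Scaled to depth, its CPM was 0.80, 1.54 and 1.38 in the controls, against 1.63, 2.50 and 3.09 for cKO. Every cKO library was thus above every control, on too few counts to be tested. The 3 counts in cKO 2 and in cKO 3 are no more than the limit that a count of 0 allows. Smo had 13, 5 and 4 counts in control and 4, 0 and 2 in cKO, and Gli3 had 7, 8 and 4 in control and 9, 0 and 1 in cKO. The lowest counts of Smo and Gli3 fell in cKO 2 and 3, which had the smallest totals.

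**Figure D5:**
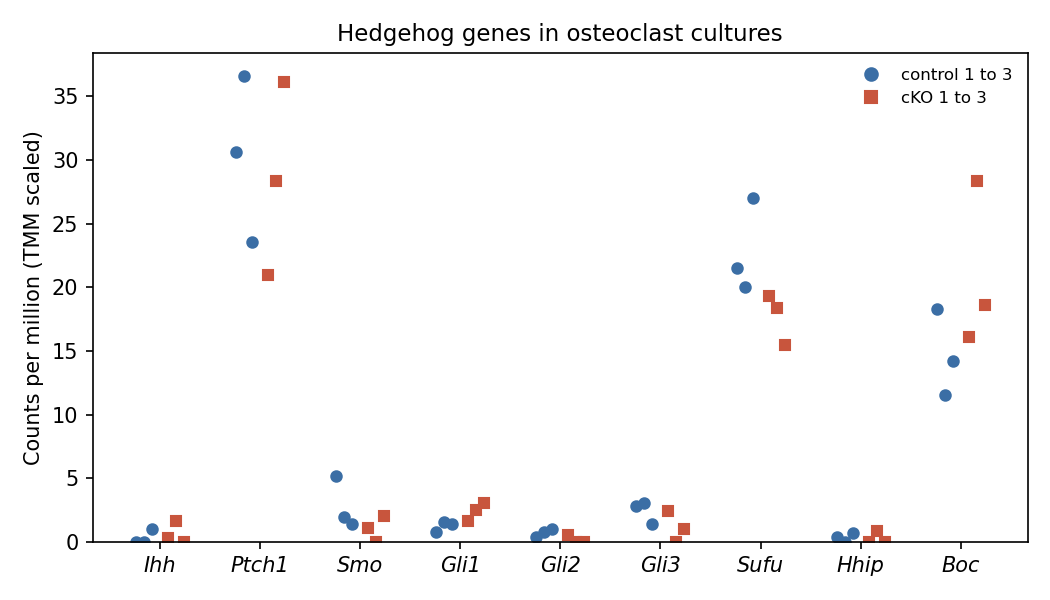
CPM (scaled by TMM) of each hedgehog gene in the 6 osteoclast cultures, each point a library. Ptch1, Sufu and Boc lie between 11.5 and 36.6, and the other 6 genes are at 5.17 or below.

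Ptch1 was at 30.6, 36.6 and 23.5 CPM in control and 21.0, 28.4 and 36.1 in cKO, with overlap (log2 fold change -0.18 ± 0.23 SE, edgeR adjusted p = 0.960). Boc was at 18.3, 11.5 and 14.2 in control and 16.1, 28.4 and 18.6 in cKO, also with overlap (0.45 ± 0.27 SE, adjusted p = 0.9499). Sufu was at 21.5, 20.01 and 27.0 in control and 19.3, 18.3 and 15.5 in cKO, every cKO library below every control (-0.33 ± 0.22 SE, adjusted p = 0.9499). Such a separation was seen in 10.6% of all genes tested, 5.53% of them lower in cKO. The test called 4 of 10724 genes, 0.0373%, and no member and none of the 35 tested pathway genes was among them. In CPM without TMM, divided by the kilobases of exon, Boc (3.99 ± 1.22 SD, n = 6), Ptch1 (3.35 ± 0.694) and Sufu (2.93 ± 0.611) overlapped in range. Each was above the other members, whose means were 0.04 to 0.51. The exon lengths were those of PSC control 3, with 8745 bases for Ptch1 against 12222 for the other PSC libraries, so the order of these 3 genes depends on the gene model.

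Reads of stromal cells were present in these cultures. Col1a1, the main collagen of stromal cells and osteoblasts, had 440, 259 and 106 counts in control and 205, 65 and 202 in cKO, and the 8 listed stromal genes together made up 0.00884% to 0.0409% of the counts in control and 0.0125% to 0.0450% in cKO. Their part in the counts of the hedgehog genes was not tested.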

How the data were processed

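Ihh, Ptch1, Smo, Gli1, Gli2, Gli3, Sufu, Hhip and Boc, the pathway lists and the marker lists were chosen with earlier results of these data known. The osteoclast table deposited by the authors holds unscaled counts, and their PSC tables hold RPKM and intron shares. Counts of exon and intron reads were deposited for control 3. Per the submitters' processing notes kallisto 0.46.0, Trim Galore 0.6.4 and FastQC 0.1.1.8 were run with GRCm38. No source used here states the aligner behind the RPKM or whether strand was used. The osteoclast table also holds fold changes and p-values of the authors' EDGE test, which were not used.

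PSCs were tested with limma 3.58.1 (R 4.3.3) on log2(RPKM + 1), with a variance trend, over the 11045 genes whose mean RPKM reached 1. Intron shares were tested on log2 odds with an offset of 0.005, and osteoclast counts in edgeR 4.0.16 (quasi-likelihood) after TMM and filterByExpr. All tests were two-sided over all genes kept by the filter of each fit, with Benjamini-Hochberg adjustment over those genes and a threshold of 0.05. From the RPKM steps whole reads were recovered for 26127 of 26128 detected genes (tolerance 0.02 reads), and 916 of 13936 genes were called on them in edgeR. With 3 libraries per group exact tests on single genes cannot reach the threshold, so adjusted p-values come from these fits. PSC libraries came from separate mice. For osteoclasts nothing says so, and p-values there measure the spread between cultures.

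Named genes were the 9 members, every pathway gene past the threshold, the 2 tested genes of each pathway list with the smallest p in PSCs, and the 3 genes most like Ihh, Ptch1 and Gli1. Shh, Dhh, Gas1 and the marker genes named lie outside this rule and were chosen after their values were seen. Gene positions come from GENCODE M21 on GRCm38. Grk2, Cnmd and Disp3 have older symbols in some tables. The limma and edgeR tests were also run on simulated data. Alternatives were other pseudocounts, filters, scalings, tools (DESeq2 1.42.0 for osteoclasts), a replicate block and leaving out each library, and the edgeR fit of all 6 PSC libraries was added after seeing the data.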

Additional observations from a re-analysis of the deposited data

How the results depend on the processing

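Limits: 2 PSC controls carried the main comparison, Ihh had 11 to 66 exon reads in its 5 libraries, and 6 of the 9 genes were too low in osteoclasts to be tested. Unless a setting shows it by its construction (fewer libraries or other genes tested), the cause of a change was not tested.

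The PSC comparison called 1118 genes (934 higher and 184 lower) and 4 of the pathway genes. It called 248 and 1 with no filter, 207 and 1 with all 6 libraries, 709 (418 higher and 291 lower) and 1 with size factors, 212 and 1 in edgeR with all 6 libraries (chosen after seeing the data), and 324 to 605 and 0 to 3 when 1 library was left out. The lowest counts, 324 and 0, were without control 1. In edgeR on 5 libraries 533 genes were higher and 383 lower, with 2 pathway genes, and a mean RPKM of at least 0.1 left 1 pathway gene. Gli1 was also lost with that filter (limma adjusted p = 0.0735), with no filter (0.132) and with no variance trend (0.0617), and was kept with a pseudocount of 0.1 (0.0461). Over single genes 370 of the alternative values kept their direction and side of the threshold, 61 lost the call, 2 gained it and 45 changed sign.

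Changes of sign were all of values that did not pass the threshold. With size factors the changes were -0.12 for Smo, -0.058 for Gli3, -0.025 for Sufu, -0.098 for Hhip, -0.028 for Pthlh and -0.095 for Prmt5, and in edgeR -0.12, -0.081, -0.023 and -0.10 for the same 4 members and -0.10 for Prmt5. With all 6 libraries Ihh was at -0.17 (edgeR -1.18) and Gli2 at 0.023, and edgeR gave -0.087 for Gli3 and -0.014 for Pthlh. Leaving out 1 library gave -0.15 to 0.24 for Smo, -0.056 to 0.21 for Gli3, -0.048 to 0.17 for Hhip, -0.0048 to 0.51 for Boc, -0.11 to 0.34 for Pthlh, -0.31 to 0.21 for Pth1r and -0.12 to 0.23 for Prmt5. Without cKO 2 or cKO 3 Ihh fell below the filter.

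The intron share test called 9 genes, 2 with an offset of 0.01, 267 at a mean RPKM of at least 5, 414 in the edgeR interaction, 1 to 4 without 1 library and 0 with all 6 libraries (1137 at an unadjusted p under 0.05 in limma). With all 6 libraries the log2 odds change was -0.45 for Ihh, 0.53 for Hhip and -0.21 for Boc, and without 1 library it ran from -0.40 to 0.37 for Ptch1, -0.27 to 0.17 for Sufu, -1.04 to 0.13 for Hhip and -0.049 to 0.61 for Boc. The osteoclast test called 4 genes, 46 with no filter, 0 with at least 10 reads in every library (436 at an unadjusted p under 0.05 in edgeR) and 0 to 9 without 1 library. Without 1 library Ptch1 in osteoclasts ran from -0.35 to 0.084.

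Replicate numbers gave no sign of a pairing: the deviations of same-numbered libraries from their group means correlated at -0.07 to 0.07. In PSCs the control mean included the divergent control 3, so this check cannot exclude a pairing there. With a replicate block limma called 67 PSC genes in 5 libraries and 1 in all 6, none of them a member (Gli1 adjusted p = 0.167 and 0.228) and 0 pathway genes, and Pth1r was at 0.016. In all 6 libraries the block left Ihh at -0.17 and Gli2 at 0.023. It called 0 genes for the intron share (1235 and 931 at an unadjusted p under 0.05), with Ihh at 1.31, Hhip at -0.47 and Boc at 0.30 in 5 libraries and at -0.45, 0.53 and -0.21 in all 6, and 0 in osteoclasts (435 at an unadjusted p under 0.05 in edgeR).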

Other observations

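Among the 6 PSC libraries control 3 had the highest RPKM of Ihh and the lowest of 6 other members, Smo, Gli1, Gli2, Sufu, Hhip and Boc. Over all tested genes with a value in each library, control 3 was the lowest for 29.6% and the highest for 34.6%. Gli1 had 27.4 and 14.1 exon reads for each exon read of Ihh in control 1 and 2, and 13.7, 8.49 and 6.36 in cKO 1, 2 and 3. In control 3 it had 0.244, so the library with the most ligand transcript had the least Gli1, on a shorter gene model of Gli1. The pattern was noticed in these data and rests on 1 library.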
